A study of Drosophila melanogaster with 10 samples.

Results

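The genes described here are named for proteins of the cytosolic ribosome in *Drosophila melanogaster*. They were chosen by name: every probe set whose only gene symbol in the array's annotation began with RpL, RpS or RpLP followed by a digit. This gave 37 genes of 10844 with a probe set of 1 symbol, each read by 1 probe set. Ribosomal protein genes without such a probe set are absent, so the values below cover only part of each subunit. There were 22 large subunit names and 15 small subunit names. The samples were mushroom body neurons laser-captured from pupae that were yw/w on the first chromosome and carried 1 copy of OK107-GAL4. In all of them this driver switched on the membrane marker UAS-mCD8::GFP together with EcRDN, a dominant negative ecdysone receptor given as UAS-EcRB1[W650A]. Every array analysed here, at either age, thus came from neurons that carried the dominant negative receptor. The driver is known to be active in other brain cells as well as in mushroom body neurons. Pupae were taken 0 h (6 arrays) or 5 h (3 arrays) after puparium formation, and each sample came from 40 pooled captures of about 100 cell bodies. A single array whose title and age label disagree was left out of the main comparisons and entered only alternatives given at the end. The y,w animals of the series design were not analysed here. The labels call the arrays biological replicates without saying how many animals each pooled, so p-values measure the spread between these arrays.

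A ribosome consists of a small subunit, which binds and decodes the mRNA, and a large subunit, which joins amino acids into protein. Ribosomal proteins are made in near-equal amounts in most growing cells, and flies with only 1 working copy of many of these genes develop slowly and have short bristles, the Minute phenotype. Several *Drosophila* ribosomal proteins also have a second gene that is used mainly in the germline. Ribosomes are put together in the nucleolus, where RNA polymerase I makes the precursor of the ribosomal RNA and assembly factors add the proteins. The comparison of the ages asks how the transcripts of these genes differed in the first hours of metamorphosis, when mushroom body neurons with a working receptor start to prune their larval axons.

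The genes fell into 27 main copies, 16 of the large and 11 of the small subunit, 7 second copies and 3 relatives whose symbols end in -like (RpL22-like was counted with the second copies). The brightest main copies were RpL39, which lines the exit of the protein tunnel, with a mean of 11.75 on the log2 scale over the 9 arrays, RpL36A with 11.49 and RpS28b with 11.41. Most main copies were among the brightest probe sets: on every array their median signal stood at the 99.6 to 99.7 percentile of all probe sets. The dimmest main copies were RpL28, at the 87.9 to 94.8 percentile over the arrays, and RpS29, at the 94.1 to 96.6 percentile. Main copies of the large subunit had mean signals from 7.32 (RpL28) to 11.75 (median 10.49), and those of the small subunit from 7.85 (RpS29) to 11.41 (median 10.86). Signals of different probe sets depend on their probes and give no ratio of transcripts, so no difference in amount between the subunits was tested.

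Second copies were dim. Against a background of 3.73, the highest signal among 8 controls for mouse and yeast sequences, RpL10Aa (mean 2.63), RpL22-like (3.42) and RpS10a (3.49) lay below it, and these 3 were the dimmest of the 37 genes. RpS19b (3.80) and RpS28a (3.90) lay just above it, while their neighbour in name RpS28b was among the brightest. RpL10Ab, the main copy beside RpL10Aa, read 11.28. RpL37-2 (5.82) and RpS5b (6.99) were the second copies clearly above background, and their partner RpL37-1 read 9.31. RpS5b is best known from the ovary. Of 8 germline marker genes, 1 was above background (gcl, 5.11 at 0 h), and vas, a defining germline marker, read 2.93 ± 0.15 at 0 h (SD, n = 6) and 2.88 ± 0.08 on the 3 later arrays. The relatives had intermediate signals: RpL24-like read 7.18, RpL7-like 7.0 and RpLP0-like 6.19. Relatives of these kinds are known from yeast as assembly factors that ride on the immature large subunit.

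**Figure D1:**
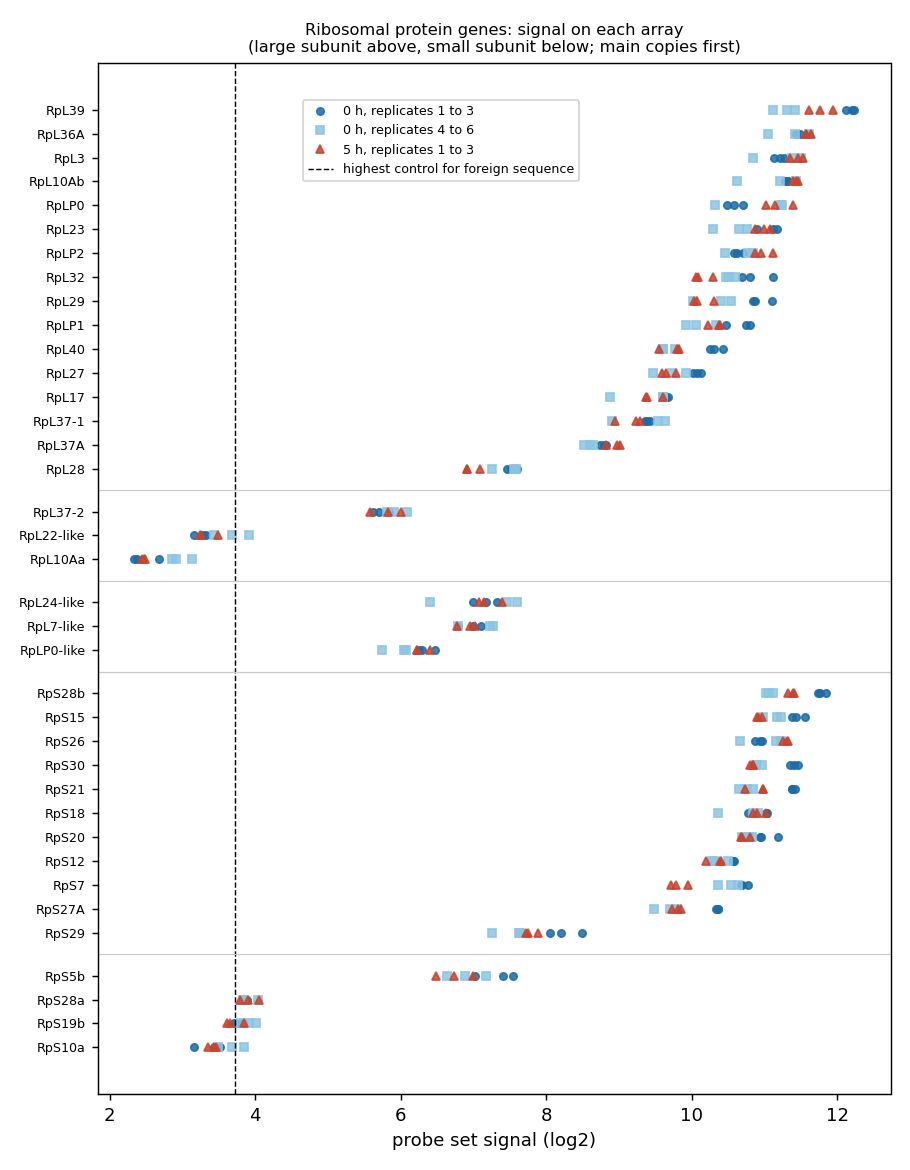
Log2 signal of each of the 37 ribosomal protein genes on each of the 9 arrays, with dark circles for 0 h replicates 1 to 3, light squares for 0 h replicates 4 to 6 and red triangles for 5 h. The dashed line is the highest control for foreign sequence, 3.73. RpS7 and RpL28 have all 3 triangles to the left of all 0 h arrays, and most main copies have the light squares to the left of the dark circles.

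The tissue labels were checked first. Of 12 measured mushroom body markers, 11 were above background, with ey at 9.32 ± 0.39 and rut at 10.29 ± 0.20 at 0 h (SD, n = 6). Both were among the brightest of the list: dac read 4.35 and chinmo 4.01 at 0 h, and sNPF, with 3.38, was below background. The mean signal of the list was 6.55 to 6.90 on the 0 h arrays and 6.87 to 6.91 at 5 h. Of the mushroom body markers 2 rose at 5 h, toy by 1.06 on the log2 scale (adjusted p = 0.038) and 14-3-3zeta by 0.66 (adjusted p = 0.025). The pan-neuronal elav (0.86, adjusted p = 0.033), which read 4.20 at 0 h, and the glial nrv2 (1.28, adjusted p = 0.018) also rose. By sign, 5 of 12 mushroom body, 2 of 8 pan-neuronal and 5 of 10 glial markers read lower at 5 h. Pan-neuronal markers were above background in 6 of 8 cases (5.24 to 5.45 at 0 h, 5.56 to 5.60 at 5 h). Glia had 8 of 10 markers above background, with a mean list signal of 4.74 to 5.34 on the 0 h arrays and 5.32 to 5.40 at 5 h. Fat body markers were above background in 5 of 5 cases (6.18 to 8.36 at 0 h, 6.36 to 7.66 at 5 h) and salivary gland markers in 6 of 10 (3.82 to 5.02, then 3.68 to 3.78). Neuroblast markers were in 5 of 9 and hemocyte markers in 2 of 7. None of these passed the test between ages with all 6 arrays at 0 h. The nearest were the hemocyte crq (1.39) and the neuroblast tll (0.79), both with an adjusted p of 0.063. Both were called higher against 0 h replicates 1 to 3 alone and against 4 to 6 alone. Against replicates 4 to 6 alone the fat body apolpp was also higher (1.22, adjusted p = 0.0027), and 1 salivary gland, 2 neuroblast and 2 hemocyte markers were lower. The highest salivary gland value came from 0 h replicate 2, where Eig71Ea read 10.01 and Eig71Eg 7.37. Without that array the 0 h range was 3.82 to 3.96 and 5 of 10 were above background. The part of these markers in the values that follow was not tested.

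Between the ages, 2 of the 37 genes were lower at 5 h and 0 were higher at an adjusted p of 0.05 in limma, against 0.236% and 1.01% of all 13966 probe sets. RpS7 and RpL28 were the genes that fell. At an unadjusted p of 0.05, 5 genes were lower and 3 were higher, beside 771 and 1280 of all 13966 probe sets. By sign alone 24 genes read lower and 13 higher, 64.9% lower, beside 63.3% of all probe sets. The median difference, 5 h minus 0 h, was -0.10 on the log2 scale for the 37 genes and -0.07 for all probe sets. As these are bulk samples, fewer cells of a type and less RNA per cell cannot be told apart.

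RpS7, a protein of the small subunit, read 10.69, 10.78 and 10.68 in 0 h replicates 1 to 3, 10.54, 10.36 and 10.64 in 0 h replicates 4 to 6, and 9.95, 9.79 and 9.72 at 5 h. All 5 h arrays were below all 0 h arrays. Its mean went from 10.62 ± 0.15 (SD, n = 6) to 9.82 ± 0.12 (SD, n = 3), a log2 difference of -0.80 ± 0.11 (SE, adjusted p = 0.0088), 1.74-fold lower at 5 h. The call was lost without 5 h replicate 2 (adjusted p = 0.07) or replicate 3 (adjusted p = 0.079), with differences of -0.78 and -0.75.

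RpL28, a protein of the large subunit, read 7.52, 7.60 and 7.47 in 0 h replicates 1 to 3, 7.26, 7.56 and 7.59 in replicates 4 to 6, and 7.09, 6.92 and 6.92 at 5 h. Again no 5 h array reached the lowest 0 h array, though 5 h replicate 1 and 0 h replicate 4 were close. The difference was -0.53 ± 0.11 (SE, adjusted p = 0.041), 1.44-fold lower at 5 h. The call was lost without 0 h replicate 2, 3, 5 or 6 or any 1 of the 5 h arrays, with adjusted p from 0.062 to 0.27, while the difference stayed between -0.58 and -0.50. Calls over all probe sets, 174 with every array, were 19 to 144 in those runs.

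RpL32 had a slightly lower difference than RpL28 but did not pass. It codes for a large subunit protein known as rp49, widely used in fly work as a reference transcript. It read 10.69, 10.80 and 11.12 in 0 h replicates 1 to 3, 10.60, 10.51 and 10.48 in replicates 4 to 6, and 10.29, 10.06 and 10.09 at 5 h. The ages did not overlap, and the difference was -0.55 ± 0.14 (SE, adjusted p = 0.092). RpL29 had -0.49 (adjusted p = 0.30) and the second copy RpS5b -0.37 (adjusted p = 0.39), and in both the ages overlapped. The ages did not overlap in 5 genes that were lower at 5 h (RpL28, RpL32, RpS7, RpS15 and RpS30) and in 3 that were higher (RpL37A, RpLP2 and RpS26), beside 4.4% and 5.39% of all probe sets. Of these 8 genes RpS7 and RpL28 alone passed the test. RpS15 had a difference of -0.36 (adjusted p = 0.23) and RpS30 of -0.33 (adjusted p = 0.36).

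The genes with the highest differences at 5 h were led by RpLP0, the base of the ribosomal stalk, the flexible arm of the large subunit that recruits elongation factors. RpLP0 read 10.71, 10.49 and 10.59 in 0 h replicates 1 to 3, 10.32, 11.23 and 11.25 in replicates 4 to 6, and 11.02, 11.15 and 11.40 at 5 h. The ages overlapped, with 0 h replicates 5 and 6 inside the 5 h range, and its difference of 0.43 had a 95% interval from -0.03 to 0.88 (adjusted p = 0.37). RpLP2, which forms the arm with RpLP1, read 10.62, 10.58 and 10.71 in 0 h replicates 1 to 3, 10.46, 10.85 and 10.78 in replicates 4 to 6, and 10.87, 10.96 and 11.12 at 5 h. The 5 h arrays were just above the highest 0 h array, a difference of 0.32 (interval 0.07 to 0.57, adjusted p = 0.23). RpLP1 had -0.06 (interval -0.47 to 0.36, adjusted p = 0.88).

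RpS26, a small subunit protein that lies beside the path of the mRNA in yeast ribosomes, read 10.87, 10.94 and 10.97 in 0 h replicates 1 to 3, 10.66, 11.16 and 11.23 in replicates 4 to 6, and 11.31, 11.32 and 11.26 at 5 h. The 5 h arrays were the highest by a narrow margin, with a difference of 0.33 (adjusted p = 0.27). RpL37A had 0.25 (adjusted p = 0.30) and RpL10Ab 0.24 (adjusted p = 0.48). None of the genes that read higher at 5 h passed the test with all 6 arrays at 0 h.

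**Figure D2:**
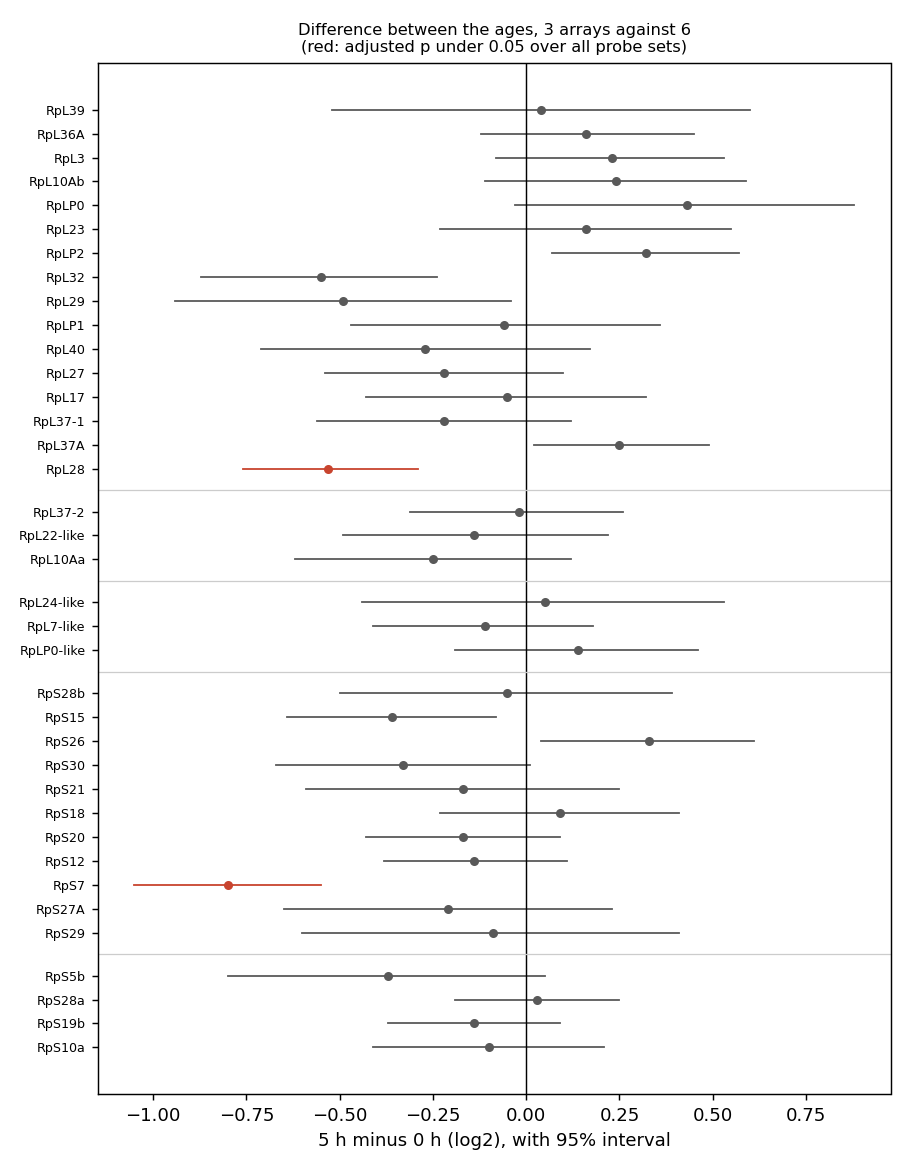
Log2 difference, 5 h (3 arrays) minus 0 h (6 arrays), for each of the 37 genes, with the 95% interval from limma. RpS7 (-0.80) and RpL28 (-0.53), in red, passed an adjusted p of 0.05, and among the main copies of the small subunit 9 of 11 points lie left of 0 (5 of 11 against 0 h replicates 4 to 6 alone).

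By subunit, 8 of the 16 large main copies read lower and 8 higher, with a median difference of -0.01 and a range from -0.55 to 0.43. Of the 11 small main copies, 9 read lower and 2 higher (RpS26 and RpS18), with a median of -0.17 and a range from -0.80 to 0.33. Each subunit had 1 gene past the test. These medians turned with the 0 h arrays used: against replicates 1 to 3 alone they were -0.21 for the large copies (10 lower, 6 higher) and -0.47 for the small (10 lower, 1 higher). Against replicates 4 to 6 alone they were 0.22 (5 lower, 11 higher) and 0.13 (5 lower, 6 higher). The difference between the subunits was not tested, since genes measured on the same arrays are not replicates. Of the 7 second copies, 3 of them below background, 6 read lower (median -0.14), and of the 3 relatives 1 did (median 0.05). In all 10 the ages overlapped. Against replicates 1 to 3 alone, 3 second copies read lower and 4 higher (median 0.05). Differences were 0.05 for RpL24-like (adjusted p = 0.92), -0.11 for RpL7-like (0.68) and 0.14 for RpLP0-like (0.64).

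The 0 h arrays did not form 1 level for these genes. In 18 of the 27 main copies all of replicates 4 to 6 read below all of replicates 1 to 3, and in 0 they read above. Among all probe sets 16.3% were lower without overlap and 27.3% were higher. Most of those were far dimmer than the main copies (0 h array medians of 4.31 to 4.44), and no share was computed for equally bright probe sets. The median difference, replicates 4 to 6 minus 1 to 3, was -0.28 for the main copies (-0.25 large, -0.33 small) and 0.11 for all probe sets. The second copies had a median of 0.22, and RpL10Aa and RpL22-like, both below background, were higher in replicates 4 to 6 without overlap. RpL39 had the widest gap, -0.91, followed by RpS29 with -0.75 and RpS28b with -0.72. This split was noticed in the data: the labels give the replicate numbers and name no batch that matches it.

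Each set of 0 h arrays was therefore compared with the same 3 arrays at 5 h, and because those are shared the results stand side by side only. Against replicates 1 to 3, 13 genes were lower at 5 h and 2 higher, with 3.74% and 4.37% of all probe sets, and the median difference was -0.19 beside 0.00 for all probe sets. Against replicates 4 to 6, 4 genes were lower and 1 higher, with 9.5% and 12.5% of all probe sets, and the medians were 0.05 and -0.12. The count of 4 was 2 without 0 h replicate 5 or 6 and 1 without 5 h replicate 2 or 3. The 1 higher gene was lost without 0 h replicate 6 or 5 h replicate 2 or 3, and there were 2 without 0 h replicate 5. Against replicates 1 to 3, the higher count was 1 without 0 h replicate 1 or 2 or 5 h replicate 2 or 3. Calls over all probe sets also changed in these runs, as given with the alternatives below.

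The 13 lower genes were all main copies, 7 of 11 in the small subunit and 6 of 16 in the large. In the small subunit, RpS7 had a difference of -0.90 against the first set of 0 h arrays (adjusted p = 0.00078) and -0.70 against the second (adjusted p = 0.0049). RpS30 read 11.41, 11.47 and 11.35 in replicates 1 to 3, 10.88, 10.97 and 10.89 in replicates 4 to 6, and 10.84, 10.81 and 10.85 at 5 h. The 5 h arrays thus lay close to the second set and far from the first, and the differences were -0.58 (adjusted p = 0.0028) and -0.08 (adjusted p = 0.59). RpS28b read 11.77, 11.74 and 11.85, then 11.06, 11.12 and 11.03, and 11.33, 11.41 and 11.39 at 5 h. Here 5 h fell between both sets of 0 h arrays, with differences of -0.41 (adjusted p = 0.015) and 0.31 (adjusted p = 0.068). RpS15, RpS21, RpS27A (made fused to ubiquitin) and RpS29 were the other small subunit genes that were lower than in replicates 1 to 3, by 0.47 to 0.56 on the log2 scale. RpS26 was higher than in replicates 1 to 3 (0.37, adjusted p = 0.023) and had 0.28 against replicates 4 to 6 (adjusted p = 0.20).

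In the large subunit, RpL28 had -0.56 against the first set (adjusted p = 0.0051) and -0.50 against the second (adjusted p = 0.024). RpL32 passed against both, with -0.73 (adjusted p = 0.0062) and -0.38 (adjusted p = 0.043). RpL29 had -0.80 (adjusted p = 0.0024) and -0.18 (adjusted p = 0.40). RpL40, which like RpS27A is made as a fusion with ubiquitin, had -0.60 (adjusted p = 0.0066) and 0.06 (adjusted p = 0.72). RpL27 was the sixth, with -0.40 (adjusted p = 0.023) and -0.04.

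RpL39 passed in opposite directions. It read 12.24, 12.20 and 12.13 in replicates 1 to 3, 11.31, 11.42 and 11.12 in replicates 4 to 6, and 11.61, 11.95 and 11.77 at 5 h. The 5 h arrays lay between the sets without touching either, giving -0.42 (adjusted p = 0.035) against the first and 0.50 (adjusted p = 0.028) against the second. With all 6 arrays its difference was 0.04 (adjusted p = 0.94). RpLP0 was higher than in replicates 1 to 3 (0.60, adjusted p = 0.011) and had 0.26 against replicates 4 to 6 (adjusted p = 0.42). RpL10Aa, whose signal was below background, was the fourth gene lower than in replicates 4 to 6 (-0.50, adjusted p = 0.017).

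**Figure D3:**
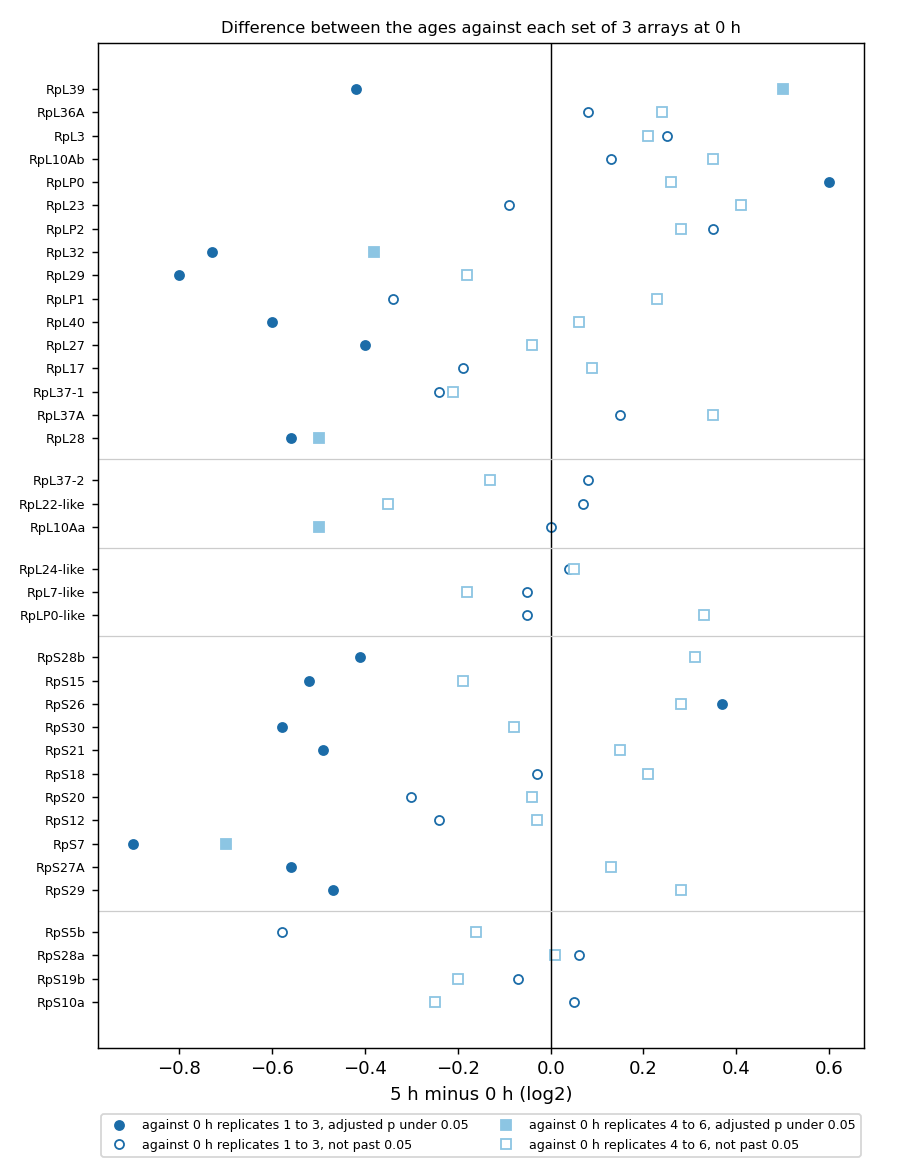
Log2 difference, 5 h minus 0 h, for each of the 37 genes against 0 h replicates 1 to 3 (circles) and 4 to 6 (squares), filled where the adjusted p in limma was under 0.05. Both comparisons use the same 3 arrays at 5 h. RpS7, RpL28 and RpL32 are filled and left of 0 for both, and RpL39 is filled on opposite sides.

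Properties of whole arrays moved with this split. The 99th percentile of all probe sets was 9.73 to 9.88 in 0 h replicates 1 to 3, 9.17 to 9.60 in replicates 4 to 6 and 9.72 to 9.77 at 5 h, and the SD over all probe sets was 1.66 to 1.74, 1.47 to 1.58 and 1.66 to 1.73. The mean of the large main copies was 10.41 to 10.44, 9.94 to 10.25 and 10.22 to 10.27 in these sets, and that of the small main copies 10.79 to 10.84, 10.34 to 10.44 and 10.41 to 10.44. After quantile normalization was repeated over the 9 arrays, the means of the large copies were 10.26 to 10.37, 10.30 to 10.35 and 10.11 to 10.22, and those of the small copies 10.66 to 10.78, 10.46 to 10.74 and 10.33 to 10.40. On that scale the 0 h sets overlapped and all 5 h means were below all 0 h means in both subunits. The calls were then RpS7, RpL28, RpL32 and RpS5b, each lower at 5 h, with 11 genes lower and 0 higher at an unadjusted p of 0.05. Over all 13966 probe sets, 101 were then called lower and 153 higher.

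The 3′ bias of the RNA differed with age. For the actin controls, 3′ signal exceeded 5′ signal by 7.81 ± 0.28 at 0 h (log2, SD, n = 6) and by 8.55 ± 0.08 at 5 h (SD, n = 3), with a two-sided exact permutation p of 0.012, the smallest that 3 of 9 arrays allow. GAPDH gave 5.15 ± 0.50, then 5.55 ± 0.08 (exact permutation p = 0.17). With the actin bias as a covariate the differences were -0.69 for RpS7 and -0.62 for RpL28, both with an adjusted p of 1, and 0 genes passed in either direction (4 lower and 0 higher at an unadjusted p of 0.05). In that fit 0 of all 13966 probe sets passed. RNA quality and age cannot be told apart by these arrays.

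**Figure D4:**
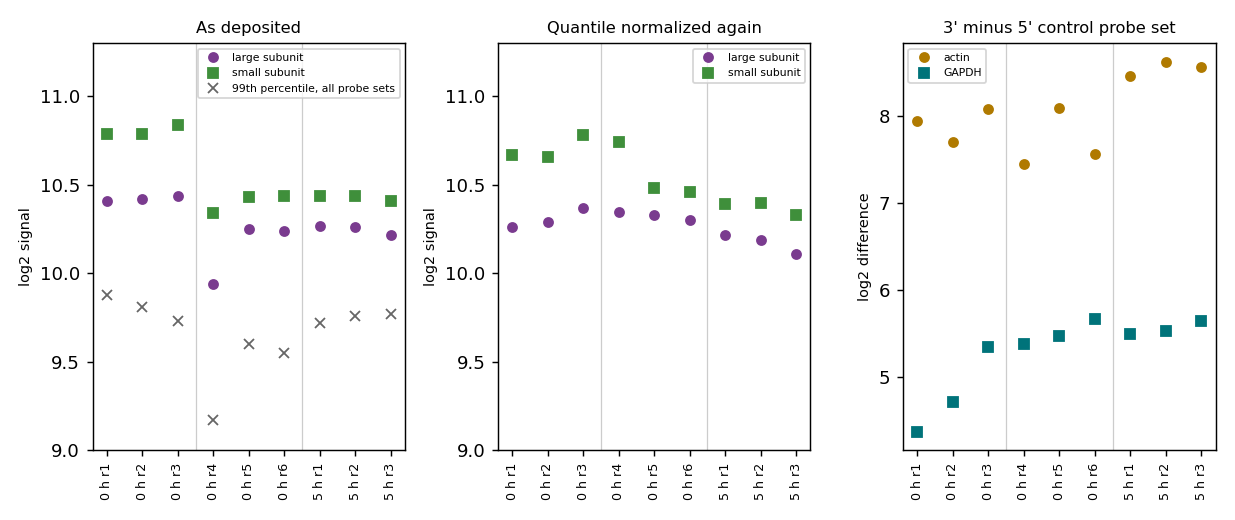
Mean log2 signal of the main copies of each subunit on each array as deposited, with the 99th percentile of all probe sets, the same means after repeated quantile normalization, and the 3′ minus 5′ signal of the actin and GAPDH controls. As deposited, both subunits are lower in 0 h replicates 4 to 6 than in 1 to 3, and the actin difference is higher on all 3 arrays at 5 h (8.47 to 8.63) than at 0 h (7.45 to 8.10).

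Other genes of ribosome production were read from 4 lists. Of 27 nucleolar assembly genes, 1 rose and 0 fell with all arrays, 22 read higher, and the median difference was 0.27 beside -0.07 for all probe sets (unadjusted p under 0.05 in 6 higher and 1 lower). The gene that rose, pit, codes for an RNA helicase of the nucleolus. It read 5.63, 5.25, 5.52, 5.30, 5.29 and 5.74 at 0 h and 5.98, 6.21 and 6.31 at 5 h, a difference of 0.71 (adjusted p = 0.033) with no overlap. Against replicates 1 to 3 the list had 3 genes higher and 2 lower, and against replicates 4 to 6 it had 12 higher and 1 lower.

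Of 8 genes of RNA polymerase I and its factors, 0 passed in limma with all arrays (unadjusted p under 0.05 in 2 higher and 1 lower), and 7 read higher with a median of 0.12. The list had 1 gene higher against replicates 1 to 3, and against replicates 4 to 6 it had 2 higher, with 0 lower in either. Tif-IA, the factor that switches the polymerase on with growth, read 6.97 ± 0.57 (SD) over the 6 earlier arrays and 7.81 ± 0.27 over the 3 later ones (adjusted p = 0.21). Polr1A, the largest subunit, had a difference of 0.51 (adjusted p = 0.095). Of 9 elongation and ribosome-bound factors, 0 passed (unadjusted p under 0.05 in 1 higher and 0 lower). Rack1, which sits on the small subunit, had 0.52 (adjusted p = 0.47) and eEF5 0.51 (adjusted p = 0.43). This list had 1 gene higher against replicates 1 to 3, 3 higher against replicates 4 to 6 and 0 lower in either. Of 14 genes of growth control, 0 passed (1 lower and 0 higher at an unadjusted p of 0.05), and the largest differences were 0.49 for the promoter-binding factor Dref (adjusted p = 0.36) and -0.47 for the kinase gene Pdk1 (adjusted p = 0.33). Of these genes 1 was lower and 0 were higher against replicates 1 to 3, and against replicates 4 to 6, 3 were lower and 2 higher. The growth control genes Myc, Tor, Thor, Rheb and Xrp1 were not matched to a probe set of 1 symbol, so these counts leave them out. The same holds for the elongation factors eEF1alpha1, eEF1beta and eEF2 and for some genes of the other lists.

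The 2 probe sets that name a ribosomal protein gene with another gene were left out by the choice of genes. The one for euc and RpLP0 read 4.07 ± 0.09 (SD) over the 6 earlier arrays and 3.83 ± 0.10 over the 3 later ones (adjusted p = 0.30), and the one for CG14645 and RpL36A read 3.27 ± 0.23 and 3.15 ± 0.16 (adjusted p = 0.68). Both stayed near or below background, while the probe sets of RpLP0 and RpL36A alone were bright and read in the other direction, higher at 5 h, without passing the test.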

How the data were processed

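Each sample was 1 Affymetrix Drosophila Genome Array, hybridised with RNA amplified in 2 rounds, per the labels' protocols. Per the submitters' processing notes, the authors used RMA and Affymetrix Expression Console, with no version named, and the deposited values are log2 signals. The sources used here do not say which arrays were normalized together. The number of arrays limits the precision.

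Of 14010 probe sets, 44 controls were left out and 13966 tested. The platform annotation gave 1 symbol to 12443, several to 327 and none to 1196. All 37 genes matched RefSeq with the same symbol. The grouping into main copies, second copies and relatives is from general knowledge of the genes. Ages were compared with limma 3.58.1 in R 4.3.3 (lmFit, eBayes, two-sided, Benjamini-Hochberg over all probe sets, threshold 0.05), and the steps were tested on simulated data. Control measures were compared by exact permutation over 84 choices of arrays.

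Members and lists were chosen with earlier results of these data known. Genes named are those past the test, the 5 largest differences per direction, the 5 largest called against each set of 0 h arrays, the 3 brightest and 3 dimmest, paralog pairs, -like genes, stalk proteins, and per list those past the test or else the 2 largest differences. Beyond that rule, RpS15, RpS18, RpS21, RpS27A, RpS29, RpS19b, RpL27, RpL37-1, RpL37-2, ey, rut, dac, chinmo, sNPF, vas, gcl, Eig71Ea, Eig71Eg and Nop10 were named after their values were seen. The small subunit gene sta, the kinase target RpS6 and RpL22 were not analysed here. No array repeated another: the SD of the difference between any pair was at least 0.17.

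Same-numbered arrays of the ages did not deviate together (correlations of -0.40, 0.00 and 0.22), so the numbers were not taken as pairs. Alternatives were other filters, normalizations, priors, array weights, blocks, a bias covariate, thresholds and each array left out. Comparing each set of 3 arrays at 0 h under other normalizations, filters and with arrays left out was chosen after seeing the data.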

Additional observations from a re-analysis of the deposited data

Results flagged for a closer look

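Among the 42 values tested at 0 h (37 genes and 5 array measures), 4 had 1 array far from the other 5 by Dixon's test at the 95% level, and chance gives about 1 in 20. In 3 of them the array was 0 h replicate 4: RpL10Ab read 10.62 there and 11.21 to 11.43 on the others, RpL17 read 8.88 and 9.61 to 9.68, and RpL36A read 11.05 and 11.42 to 11.62. That array had the lowest 99th percentile of all probe sets (9.17) and the lowest mean of the main copies (10.10). Flags on the same array are not independent of each other. RpS28a, which lies just above background, read 4.04 in 0 h replicate 6 and 3.83 to 3.89 on the others.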

How the results depend on the processing

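With all 6 arrays at 0 h, the count of 2 genes lower at 5 h became 1 at a threshold of 0.01, 1 with a trended and robust prior, 4 with repeated quantile normalization, 10 with array weights, 13 with only 0 h replicates 1 to 3, 4 with only replicates 4 to 6 and 10 with a term for that split. It was 0 with the array of conflicting labels taken as 0 h (6 lower and 3 higher at an unadjusted p of 0.05 in limma) and 0 with the 3′ bias covariate (4 lower, 0 higher), and 0 to 2 with 1 array left out. With the conflicting array taken as 5 h it stayed 2 (4 lower and 2 higher at an unadjusted p of 0.05). In that fit 0 of the genes were called higher, beside 57 lower and 295 higher over all probe sets. Over all probe sets, calls of lower and higher were 33 and 141 as reported, 21 and 120 with the trended prior, 101 and 153 with quantile normalization, 703 and 1106 with array weights, 522 and 610 with replicates 1 to 3, 1327 and 1750 with replicates 4 to 6, 311 and 226 with the term, and 0 and 0 both with the conflicting array as 0 h and with the bias covariate. The count of 0 higher became 3 with array weights, 2 with only replicates 1 to 3 and 1 with only replicates 4 to 6, and stayed 0 with any 1 array left out. The same replicate numbers used as a replicate block gave 9 lower and 1 higher with a median of -0.19 (350 and 393 over all probe sets). Of 6 arrays, 1 correlated best with its own number. The term for the split and the replicate block both take their age difference from 0 h replicates 1 to 3 alone. They thus repeat that comparison with another estimate of the spread, and RpS7 had -0.90 in each. The median difference of -0.10 ranged from -0.31 with the bias covariate to 0.05 with only replicates 4 to 6, and from -0.15 to -0.07 with 1 array left out. Against replicates 1 to 3, the 13 lower became 10 to 11 with 1 array left out, and the 2 higher became 1 to 3, and 4 with repeated quantile normalization. All probe sets gave 297 to 558 lower and 339 to 657 higher with 1 array left out, and 668 higher with that normalization. Against replicates 4 to 6, the 4 lower became 1 to 5 and the 1 higher 0 to 2 with 1 array left out. All probe sets gave 142 to 1616 lower and 901 to 1817 higher in those runs. The higher count against replicates 4 to 6 was 0 with quantile normalization and 4 with arrays centred on their medians, beside 1405 and 2075 over all probe sets. RpL39 turned from 0.04 to -0.42 with only replicates 1 to 3. With the conflicting array as 0 h, RpS7 had -0.76 (adjusted p = 0.06) and RpL28 -0.48 (adjusted p = 0.14), and RpL28 had an adjusted p of 0.13 with the trended prior. With that array as 5 h, RpS7 had -0.67 (adjusted p = 0.023) and RpL28 -0.48 (adjusted p = 0.029). The causes were not tested.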

Other observations

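On the array titled 5 h but with an age label of 0 h, RpS7 read 10.34 and RpL28 7.18. Both values lie between the means of the ages, 10.62 and 9.82 for RpS7 and 7.50 and 6.97 for RpL28. They were just below the lowest 0 h arrays (10.36 and 7.26) and above the highest 5 h arrays (9.95 and 7.09). RpL39 read 11.79 on this array, between both sets of 0 h arrays and within the 5 h range (11.61 to 11.95). RpS30 read 11.07, above all 5 h arrays and within the 0 h range. The 3′ minus 5′ difference of actin was 8.44 there, between the ranges at 0 h (7.45 to 8.10) and 5 h (8.47 to 8.63). That of GAPDH was 5.91, above all arrays of both ages.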
